A study of Mus musculus with 12 samples.

Results

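The cortex of E14.5 mouse embryos holds neural stem cells that divide to make more stem cells, progenitors that have committed to making neurons, and the neurons born from them. 5-Methylcytosine (5mC) is the main covalent mark of mouse DNA, it sits mostly on CpG dinucleotides, and at promoters and enhancers it usually goes with silence. TET enzymes oxidise 5mC to 5-hydroxymethylcytosine (5hmC), which is a step of active demethylation and also a lasting mark in brain. Described here is the difference in 5mC between proliferating progenitors (PP) and neurons at every 5mC peak of the series, with differentiating progenitors (DP) as the stage in between.

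The embryos were double heterozygous for Btg2RFP and Tubb3GFP, so all 3 cell types carried both reporter alleles and no treatment was given. PP were the cells without either reporter, called stem cells in the labels. DP were positive for RFP alone, and every GFP-positive cell was taken as a neuron. Because PP were sorted by the absence of both reporters, any cell of the dissociated cortex that expressed neither could enter that gate. MeDIP enriches DNA fragments bound by a 5mC antibody before sequencing, and hMeDIP does the same for 5hmC. The series holds 12 samples, 6 pulled down and 6 inputs, of which the 3 pulled-down 5mC samples are the base of this account.

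All 55085 rows of the 5mC table were used, out of 102563 rows of both marks, and none was filtered. Each row is a peak with a median width of 144 bp, and the table gives 1 level per cell type, the log2 of the authors' mean normalized reads in the peak. The median level was 5.06, 5.05 and 4.87 in PP, DP and neurons, or 33.3 normalized reads per peak in PP and 29.3 in neurons. The replicates had been averaged before deposition, so no value below has a spread between replicates and no difference could be tested. Intervals given with shares are exact binomial 95% intervals and cover the counting of peaks only, and neighbouring peaks are not independent.

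Uncentred, 69.7% of the peaks were lower in neurons than in PP, and the median difference was −0.17 on the log2 scale. That median was taken off every peak, so a change given below is the level in neurons minus the level in PP relative to the typical peak. A peak was called a loss peak where this centred change was −1 or lower, which is a level at least 2-fold lower in neurons, and a gain peak where it was 1 or higher. By these limits 4.00% of all peaks were loss peaks and 0.677% were gain peaks.

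The authors' expression values of the nearest genes, which come from no sample of this series, followed the names of the cell types. Over all 14294 gene symbols with a single expression entry, 21.3% were at least 2-fold higher in neurons and 23.0% at least 2-fold lower. Of 25 genes that regulate or mark cortical progenitors, 20 had an expression value, and 19 of these were at least 2-fold lower in neurons, with a median of −4.39 on the log2 scale. Tubb3, the neuronal tubulin named in the GFP reporter, was at 3814.4 in PP and 105657 in neurons. As the cells were sorted by that reporter, the direction of this difference follows from the sorting. The values came from bulk RNA of an earlier study of the same cell types and their scale is not named, so they are compared only within a gene, and fewer cells of a type cannot be told apart from less RNA per cell. Markers of other cells were also lower in neurons than in PP. All 12 endothelial and mural markers were at least 2-fold lower, with a summed value of 2365.1 in PP and 233.4 in neurons. All 9 measured of the 15 microglia and blood markers were at least 2-fold lower too, with sums of 466 and 93.5. For meningeal cells 5 of 6 measured markers were at least 2-fold lower, with sums of 3368.4 and 2394.4, and Foxd1 and Twist1 were listed at 0 in neurons. Oligodendrocyte lineage markers were lower for 3 of 6, with sums of 3153.2 and 2857.9 and Sox10 listed at 0 in neurons. Interneuron markers went the other way, with 7 of 9 at least 2-fold higher and sums of 8820.5 and 16092.1. The part of these other cells in the 5mC differences was not tested.

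A few peaks lay on a promoter, and their sequences show what the table measures there. RefSeq promoter windows of GRCm38.p6, from 250 bases before to 50 bases after a start, were overlapped by 341 peaks, of which 13 were loss peaks and 6 gain peaks. The 5 sequences below, chosen after their values were seen, are the bases before the start that a loss or gain peak covered at protein-coding genes with an established name. They are written from 5′ to 3′ on the strand of the gene, with every CpG in capitals, since CpG is where the antibody finds most of its target. Those of Rph3a, Abr and Cabp1 lie under loss peaks, and those of Rab3il1 and Tmsb4x under gain peaks.
Rph3a, loss, minus strand, chr5:121010142-121010257: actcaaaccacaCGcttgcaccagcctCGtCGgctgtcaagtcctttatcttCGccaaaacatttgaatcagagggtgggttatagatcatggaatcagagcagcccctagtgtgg
Abr, loss, minus strand, chr11:76509420-76509507: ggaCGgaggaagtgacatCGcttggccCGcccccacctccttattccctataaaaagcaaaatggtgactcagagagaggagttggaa
Cabp1, loss, minus strand, chr5:115186122-115186153: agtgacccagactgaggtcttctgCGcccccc
Rab3il1, gain, plus strand, chr19:10014988-10015046: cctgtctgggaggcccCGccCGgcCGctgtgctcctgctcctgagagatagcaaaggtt
Tmsb4x, gain, minus strand, chrX:167209219-167209269: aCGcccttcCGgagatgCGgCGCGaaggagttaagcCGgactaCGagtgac

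The Rph3a stretch holds 4 CpGs in 116 bases and the Tmsb4x stretch 7 in 51. Across all 32851 windows, 94.6% held at least 1 CpG and the median was 7 per window of 300 bases. The windows that a 5mC peak overlapped held a median of 9, and so did those under the 13 loss peaks. At Rph3a, which encodes rabphilin, a synaptic vesicle protein that binds Rab3, the level was 5.63, 5.66 and 2.58 in PP, DP and neurons, a centred change of −2.88. PP and DP were alike there and only the neuronal level was low. Expression of Rph3a was 12.9 in PP and 2340.2 in neurons. At Abr, a regulator of small GTPases, the levels were 4.83, 4.32 and 3.53, and the change was −1.13. The table assigns that peak to another nearest gene, Gm12341, so no expression value of Abr is given beside it. Cabp1, a gene for a calcium-binding relative of calmodulin, had levels of 4.16 in PP and 0.11 in neurons, the latter the lowest level found there, and expression of 124.1 in PP and 4562.3 in neurons. The table places this peak inside the gene, 8287 bp from the start it uses. At Tmsb4x, which encodes thymosin beta 4, a protein that binds actin monomers, the levels were 3.86, 3.96 and 4.72 and the change was 1.03. Its expression was also higher in neurons, at 58957.4 against 18209 in PP. At Rab3il1, a gene for a Rab3-interacting exchange factor, the levels were 3.91, 3.97 and 4.87, a change of 1.13. This peak too lies away from the start the table uses, by 13403 bp. At both gain promoters PP and DP sat close together and neurons stood above them. Both counted as gains only after centring, as neither uncentred difference reached 2-fold. Among all 341 peaks on a promoter window 3.81% were loss peaks (interval 2.05 to 6.43), and that interval includes the 4.00% of all peaks.

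Across all 55085 peaks, 2202 were loss peaks, 4.00% of the table, and 373 were gain peaks, 0.677%. The loss peaks were nearest to 1701 gene symbols and the gain peaks to 361. Centring sets about equal numbers of peaks on each side of 0, and among larger changes losses made up more of the calls. At a change of at least 0.25 there were 14367 lower and 12435 higher peaks, a ratio of 1.16. The ratio was 2.01 at a change of at least 0.58, 5.90 at 1 and 23.7 at 1.5. At least 4-fold lower were 536 peaks and at least 4-fold higher were 4, and 48 peaks were at least 16-fold lower while none was that much higher. The centred changes had an SD of 0.52 over peaks. Uncentred, 3137 peaks would count as losses and 145 as gains, so the split depends on the scaling, while losses outnumbered gains either way.

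The 4 peaks at least 4-fold higher in neurons, named after their values were seen, all started from low levels in PP. The peak inside Galm, which encodes the galactose mutarotase, had levels of 1.61, 3.79 and 4.74 in PP, DP and neurons, a change of 3.30. Expression of Galm was 201.1 in PP and 2.8 in neurons. The peak 33.0 kb upstream of D19Ertd386e had levels of 1.53, 2.67 and 4.64, a change of 3.28. Those near Gm13161 and inside Gm20319 changed by 2.25 and 2.20.

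How often a peak was called depended strongly on its level. When the peaks were split into 10 equal groups by their level in DP, which does not enter the difference, 12.8% of the lowest group were loss peaks (interval 11.9 to 13.7) and 0.781% of the highest (0.565 to 1.05). Gain peaks were 2.07% of the lowest group and 0 of 5509 in the highest (interval 0 to 0.0669). Changes also spread more widely at low levels, with an SD of 0.82 at the lowest and 0.27 at the highest. Losses outnumbered gains in each of the 10 groups.

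**Figure D1:**
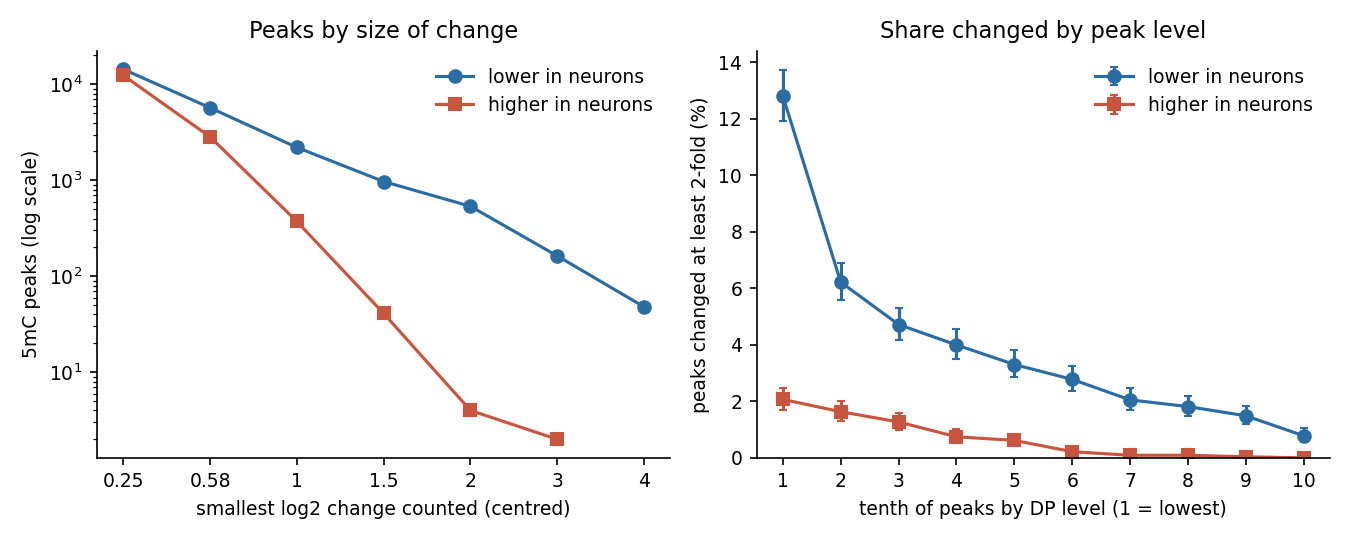
Left, the number of 5mC peaks (log scale) lower or higher in neurons than in PP by the smallest centred log2 change counted. Right, the percentage of peaks at least 2-fold lower or higher in 10 equal groups of peaks by DP level, with exact 95% intervals; the loss share runs from 12.8% to 0.781%.

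In neurons, 38 peaks shared a single lowest level of 0.11, about 1.08 normalized reads, and all 38 were loss peaks. Their median level was 4.57 in PP and 3.86 in DP, so their change is bounded by that lowest level rather than measured. In PP only 1 peak stood at the lowest level, 1.53. Of the 10 largest losses with a level of at least 5 in PP, 9 ended at the lowest neuronal level.

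The largest of these, at chr5:110981104-110981229 and 23.0 kb upstream of Mir701, had levels of 6.42, 5.71 and 0.11 in PP, DP and neurons, a change of −6.14. The next lay 1.46 kb upstream of the start of Syt3, at chr7:44382544-44382750, with 6.32, 5.70 and 0.11. Syt3 belongs to the synaptotagmins, calcium sensors of vesicle fusion, and its expression was 85.5 in PP and 2050 in neurons. In both, DP lay much nearer to PP than to neurons. A peak inside St8sia1, at chr6:142929062-142929195, had levels of 5.55, 4.37 and 0.11, and the gene, whose sialyltransferase makes the ganglioside GD3, was expressed at 2761.6 in PP and 7603.8 in neurons. The Skor1 peak, at chr9:63194846-63194973, was the only one of the 10 above the lowest level, with 5.93, 4.75 and 0.52. Coro2b, for an actin-binding coronin, had a peak 7.60 kb upstream with 5.49, 4.01 and 0.11, and its expression was 5828.7 and 11446.8. At the remaining 5, near H2afy, Acsf3, Mgat5b, Gm16045 and Sh3rf1, the change ran from −5.08 to −4.83. Of these 5 nearest genes, Mgat5b, a glycosyltransferase gene, was the only one more than 2-fold higher in neurons, at 14157.4 against 2149.8. High levels did not keep a peak from the calls, as a peak inside Vstm2l, picked after its values were seen, had 8.22, 7.67 and 5.71, with expression of 1.2 in PP and 281.7 in neurons.

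The 10 largest gains with a level of at least 5 in neurons were smaller, from 1.32 to 1.89. The peak inside 1500001M20Rik, at chr6:115027705-115027915, had levels of 3.68, 5.07 and 5.38 in PP, DP and neurons. The one downstream of Adra2a, the gene of an adrenergic receptor, had 3.41, 4.92 and 5.01, at chr19:54218971-54219102. In both, DP was already close to neurons. The Arhgap12 peak was different, with 3.37, 3.87 and 5.10, as most of its gain lay between DP and neurons. Nearest to the rest were Marveld3, Vwf, Snrpa1, Klhl3, Tnfrsf1b, Fam113b and Prelid2. Expression of Vwf, the endothelial von Willebrand factor, was 43.8 in PP and 6.3 in neurons, whereas that of Klhl3, a substrate adaptor of a ubiquitin ligase, was 121 and 631.1.

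At the loss peaks DP lay nearer to PP than to neurons at the median. The median level of the 2202 loss peaks was 4.81, 4.48 and 3.13 in PP, DP and neurons. Relative to the typical peak, DP were 0.36 below PP at the median, 25.4% of the change seen in neurons. DP lay between PP and neurons at 1778 loss peaks, 80.7%, and were at or above PP at 384, all relative to the typical peak. Gain peaks had another time course, with median levels of 3.68, 4.38 and 4.70, and 61.1% of their median change was present in DP. As the levels in PP and in neurons chose the peaks, and PP enters both differences, these shares are descriptions and the order of the PP and neuronal medians was set by the choice.

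**Figure D2:**
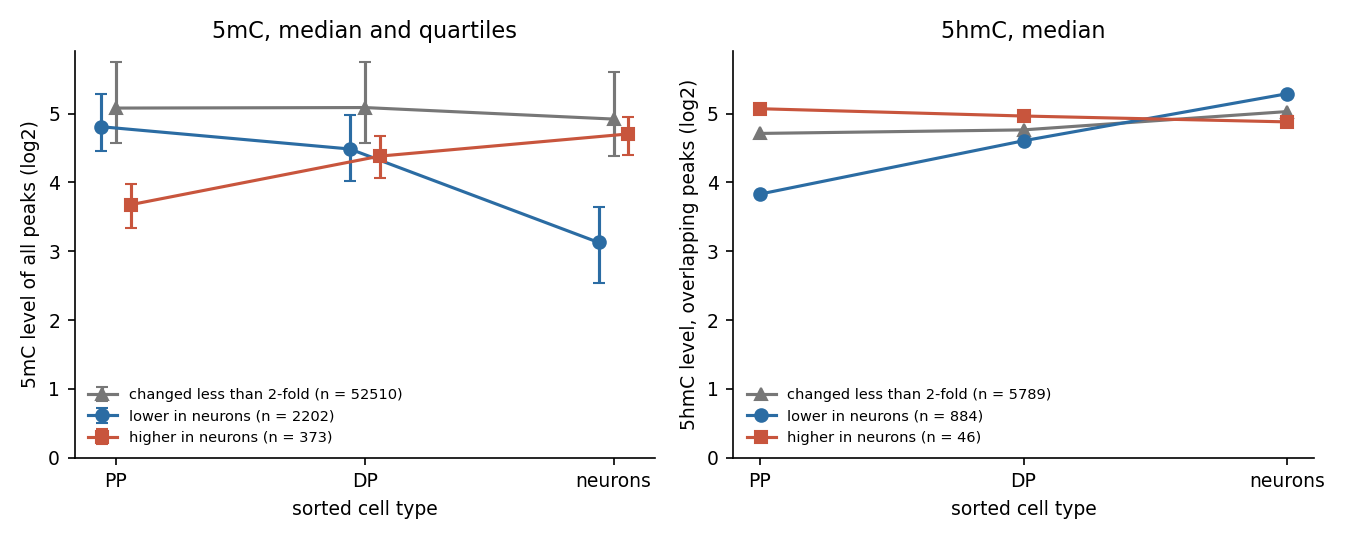
Left, median 5mC level (log2 normalized reads per peak, bars from the lower to the upper quartile over peaks) in PP, DP and neurons for loss, gain and other peaks. Right, median 5hmC level in the same cell types where a 5hmC peak overlaps; at loss peaks 5mC was 4.81, 4.48 and 3.13 and 5hmC 3.83, 4.60 and 5.29.

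5hmC was measured with another antibody and was not used to choose the peaks. A 5hmC peak overlapped 884 of the loss peaks by at least 1 bp, 40.1% (interval 38.1 to 42.2), against 12.2% of all 5mC peaks and 12.3% of the gain peaks. Read the other way, 13.2% of the 6719 5mC peaks with a 5hmC peak were loss peaks and 2.73% of those without. At the 884 loss peaks the median 5hmC level was 3.83, 4.60 and 5.29 in PP, DP and neurons, a centred change of 1.73. 5hmC was at least 2-fold higher in neurons at 619 of them, 70.0%, and at least 2-fold lower at 13. Over all 5hmC peaks 14.2% were that much higher and 1.24% that much lower, and of those paired with any 5mC peak 31.1% were that much higher. At the 46 gain peaks with a 5hmC peak the median change of 5hmC was −0.069, and 1 was at least 2-fold higher.

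In DP, 5hmC at the paired loss peaks was already 0.76 above PP at the median, and 5mC there was 5.00, 4.67 and 3.18 in PP, DP and neurons. Across the 6719 overlapping pairs the rank correlation (Spearman) of both changes was −0.51, given with no p since the pairs come from the same sorted cell types and peaks are not replicates. The relation was not even over its range. The median 5hmC change was 0.089 for peaks with a 5mC change between 0 and 0.25, 1.18 between −1 and −0.5, and 1.90 between −2 and −1.5. For peaks at −2 or lower it was 1.45, although the share with a 5hmC peak was highest there, at 51.9%. Of the 38 peaks at the lowest neuronal level, 15 had a 5hmC peak, with a median change of 0.60.

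**Figure D3:**
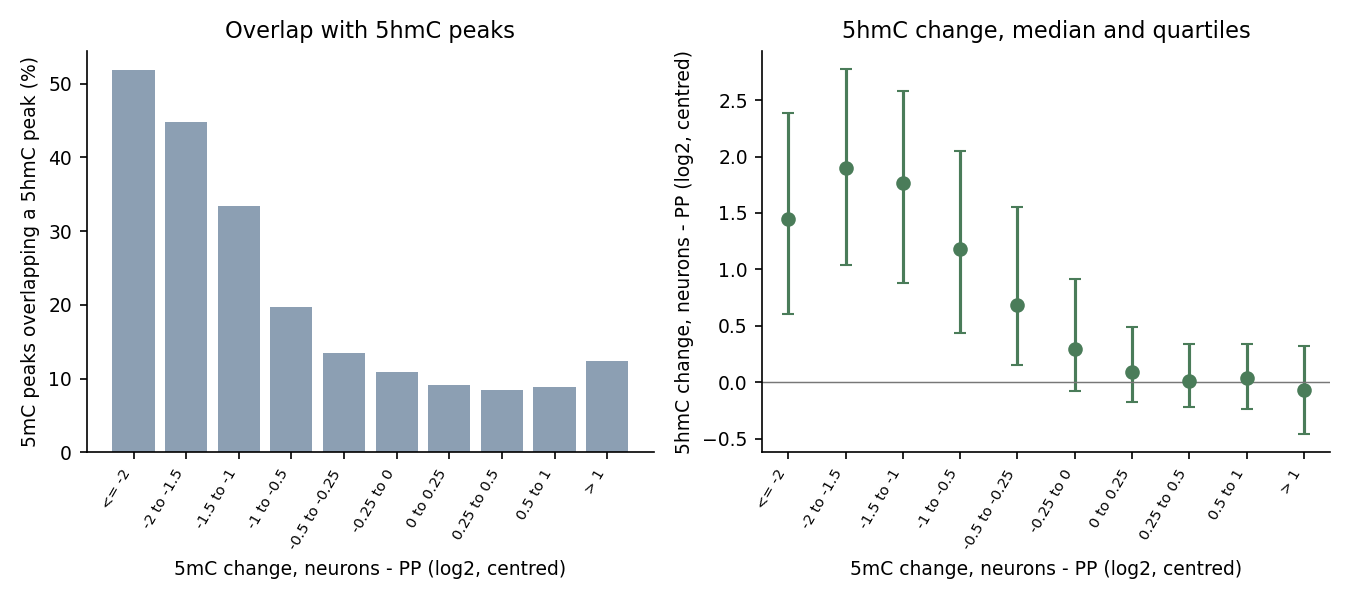
Left, the percentage of 5mC peaks with an overlapping 5hmC peak, by the centred 5mC change from PP to neurons. Right, the median 5hmC change with quartiles at the overlapping peaks of the same groups; it was 1.90 for 5mC changes between −2 and −1.5 and near 0 for peaks higher in neurons.

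Named loss peaks showed the range of 5hmC behaviour. At the peak 0.883 kb upstream of the start of Tubb3, chr8:123410483-123410602, 5mC was 6.52, 6.03 and 4.36 in PP, DP and neurons, and 5hmC was 3.03, 3.30 and 5.72. Both marks changed there mainly between DP and neurons. A peak inside Sh3rf1, which encodes a scaffold of JNK signalling with ubiquitin ligase activity, had 5hmC levels of 2.71, 5.36 and 5.97, so most of its 5hmC was present in DP. At Neurod2, a neurogenic bHLH factor of young projection neurons, both marks were lower in neurons. The peak 3.65 kb upstream of its start, chr11:98333211-98333393, had 5mC levels of 5.91, 4.92 and 2.50 and 5hmC levels of 4.57, 5.08 and 3.28, a 5hmC change of −1.21. Neurod2 expression was 1454.7 in PP and 44141.2 in neurons. A peak downstream of Emx1, a homeobox gene of the dorsal telencephalon, had 5mC levels of 5.77, 4.43 and 1.28 and 5hmC levels of 4.28, 5.98 and 4.53. There 5hmC was highest in DP.

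By position, loss peaks lay somewhat less often upstream of their nearest gene than the table as a whole, 37.0% (interval 34.9 to 39.0) against 39.5%. Inside a gene lay 41.5% of the loss peaks (interval 39.4 to 43.6), 40.2% of all peaks and 37.8% of the gain peaks (32.9 to 42.9). By distance from the annotated start, loss peaks were 3.49% of the peaks within 2 kb of a start, 3.13% from 2 to 10 kb, 3.88% from 10 to 50 kb, 5.28% from 50 to 100 kb and 5.05% beyond. Inside genes, peaks 50 to 100 kb from the start were loss peaks in 6.16% (5.27 to 7.15) and those 2 to 10 kb from it in 3.10% (2.69 to 3.56). The median distance to the start was 27184 bp for loss peaks and 20385 bp for all peaks. Of 257 peaks that overlapped an annotated start 6 were loss peaks, at Gm12968, D330022K07Rik, C030048H21Rik, Gm6304, Gm8550 and Gm4853, and none was a gain peak. The loss share was 2.33% (interval 0.861 to 5.01) and that of gain peaks 0 (interval 0 to 1.43). Both intervals include the shares over all peaks, 4.00% and 0.677%.

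Autosomes ranged from 3.03% loss peaks on chromosome 16 to 4.93% on chromosome 4. The X chromosome stood apart, with 5 loss peaks among 799, 0.626% (interval 0.203 to 1.45), and 10 gain peaks, 1.25%. Its median centred change was 0.093, and 61.6% of its peaks were above 0. The median X level was 4.91, 4.88 and 4.88 in PP, DP and neurons, and on autosomes it was 5.06, 5.06 and 4.87. The sex of the embryos was not given in the labels. The 5 X-linked loss peaks, named after their values were seen, were nearest to Mir1970, Pak3, Gm15186, Pgrmc1 and Gm4853. The Pak3 peak, near a gene for a p21-activated kinase, had the highest PP level of any loss peak, 9.52, 9.90 and 7.73 in PP, DP and neurons. A 5hmC peak overlapping it stood at −0.051, 8.57 and −0.050 in PP, DP and neurons.

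Adjacent peaks were weakly alike in the size of their change, and loss peaks followed each other more often than the 4.00% of all peaks at distances up to 100 kb. The rank correlation of the changes of neighbouring peaks was 0.11 for 3921 pairs within 1 kb and 0.073 for 4365 pairs over 100 kb apart. After a loss peak, the next peak was also a loss peak in 15 of 153 pairs within 1 kb, 9.80% (5.59 to 15.7). The share was 8.98% (6.44 to 12.1) from 1 to 5 kb, 7.52% (5.90 to 9.43) from 5 to 20 kb and 6.07% (4.26 to 8.34) from 20 to 100 kb. It was 7 of 132 pairs over 100 kb apart, 5.30% (2.16 to 10.6). The closest of the pairs within 1 kb can lie under the same sheared fragments.

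Some genes nevertheless gathered several loss peaks. With 4 or more there were 29 symbols, of which 7SK and U6 stand for many small RNA genes across the genome and are set aside. The other 27 had 129 loss peaks among 550, a share set by the choice of these genes. None of the 550 was a gain peak, against 0.677% of all peaks. The 129 loss peaks could not be gain peaks, and at so low a share few would fall among the rest. Nothing is therefore read from this count. In expression 17 of the 27 were at least 2-fold higher in neurons and 3 at least 2-fold lower, Mki67, Sox2 and Gm16214. Those shares can be read beside the 21.3% and 23.0% of all genes. Among genes with at least 10 peaks and no loss peak they were 24.7% and 24.9%.

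Bcl11b, the transcription factor CTIP2 of deep-layer neurons that project out of the cortex, had 7 loss peaks among its 21 peaks, all inside the gene and within 69.4 kb of each other. The largest, at chr12:107995021-107995198 and 8.49 kb from the start, had levels of 4.65, 4.33 and 2.13 in PP, DP and neurons. The other 6 changed by between −1.53 and −1.14, and none of the 7 overlapped a 5hmC peak. Expression of Bcl11b was 1527.7, 6361.3 and 51072 in the order PP, DP and neurons. Tiam2, an exchange factor that activates Rac in growing neurites, had 7 loss peaks of 14, of which 5 lay upstream and 2 inside. Its largest, at chr17:3254032-3254161 and 72.5 kb upstream, had levels of 6.03, 5.37 and 1.65, and expression of the gene was 665.3, 6081.2 and 41126.1. In both genes expression was higher in DP than in PP, while the median level of their loss peaks in DP was 4.65 and 4.16, against 4.90 and 4.75 in PP.

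Cxcr7, the atypical receptor that takes up the chemokine CXCL12, had 6 loss peaks of 15, of which 1 lay inside and 5 up to 187 kb downstream. At chr1:90383014-90383141 the levels were 5.53, 5.05 and 1.88, and expression of the gene was 281.9 in PP and 4115 in neurons. Auts2, a gene of neuronal development linked to intellectual disability, had 5 loss peaks of 18, all inside and 300 to 513 kb from the start. One of them, chr5:132029781-132029940, went to the lowest neuronal level from 4.94 in PP and 3.61 in DP. Of the 5, 2 overlapped a 5hmC peak, and both of those were at least 2-fold higher in 5hmC in neurons. Ctif, a translation factor gene, also had 5 loss peaks, of 10, and was expressed at 2049.7 in PP and 8097 in neurons. At Cxcr7, Auts2 and Ctif the loss peaks had median levels of 4.79, 4.65 and 4.47 in PP and 4.19, 3.86 and 3.89 in DP. The remaining symbol with many loss peaks, 4933415D12Rik, had 8 of 28, none inside it and spread over 251 kb, and its expression was low throughout, at 17.3 in PP and 64.8 in neurons.

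Sox2 and Mki67 went the other way in expression. Sox2, a transcription factor that keeps neural stem cells undifferentiated, had 5 loss peaks of 24, all downstream and 41.0 to 309 kb from the start. At chr3:34776807-34776935 the levels were 4.47, 3.80 and 0.47 in PP, DP and neurons, and 5hmC was 1.65, 4.00 and 4.19. Expression of Sox2 was 16755.4, 10576.4 and 1651.9 in PP, DP and neurons. Mki67, the gene of the proliferation marker Ki-67, had 5 loss peaks of 21, all upstream and 87.0 to 344 kb away, and was expressed at 46482.2 in PP and 1585.3 in neurons. The table links a peak to a gene by the nearest start alone, and none of the 10 lay inside either gene.

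Tcf4, a broadly expressed bHLH partner of the proneural factors, had 5 loss peaks of 10, all inside, with expression of 45841.8 in PP and 59100 in neurons. Rbfox1, a splicing factor of neurons, had 4 of 29 and expression of 53.6, 379.4 and 6776.4 in PP, DP and neurons. The loss peaks of Rbfox1 had a median level of 5.11, 4.57 and 2.32, a median change of −2.35, the lowest median among the 27 genes. All 4 loss peaks of Tmem108 lay inside the gene and overlapped a 5hmC peak, and its expression was 391.2 and 3087.1. The median 5hmC change at these peaks was 2.63, but only 2 of the 4 were at least 2-fold higher in 5hmC. Ephb2, an axon guidance receptor, had 4 of 12, and 5hmC was at least 2-fold higher at the 3 that overlapped a 5hmC peak. Pitpnb, a phospholipid transfer protein gene, had 4 of 14 with 3 at least 2-fold higher in 5hmC, and its expression was 4346.6 and 4087.6. Every loss peak with a 5hmC peak was that much higher in 5hmC also at Auts2, Ctif, Fam105a, Itga9, Prkce, Rwdd3, Sox2, Tcf4 and Zfhx3. None was at 4933415D12Rik, Cxcr7, Lypd1, Mki67, Mn1 and Tiam2. At 1810041L15Rik, Adamts20, Gm16214, Med13l, Nedd4l, Pvrl1, Rasgef1b and Rbfox1 some were and others were not. Apart from Ephb2 and Pitpnb, the genes with all or none that much higher had only 1 or 2 loss peaks with a 5hmC peak. Over all 884 such peaks the share that much higher was 70.0%, so these groups set no gene apart.

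No gene had more than 2 gain peaks. The 4 chosen by number and then by symbol were Atp2b1, BC037034, D030018L15Rik and Gm1966, with 2 each. Atp2b1, a calcium pump of the plasma membrane, also had 2 loss peaks among its 21, and its expression was 3894.4 in PP and 8255.7 in neurons.

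Gene lists drawn up for this tissue, with earlier results of these data known, were then read against the 4.00% of loss peaks in the table. The share was above it in 10 of the 14 lists, and in 12 at a change of at least 0.58. Among the 10, the intervals of synapse adhesion, cell cycle and replication, interneuron markers and meningeal markers included the 4.00%. The share was highest for neurogenic bHLH factors, with 7 of 27 peaks (25.9%, interval 11.1 to 46.3), but 5 of these 7 belonged to Tcf4. For cortical neuron identity factors it was 23 of 150 (15.3%, 9.98 to 22.1), of which 7 belonged to Bcl11b and 5 to Auts2. These loss peaks lay at 8 of the 20 members with a peak. Of 22 members with an expression value 16 were at least 2-fold higher in neurons. Progenitor regulators had 10 of 84 (11.9%, 5.86 to 20.8), of which 5 were Sox2 and 2 Emx1. The interval of each of these 3 lists lay above the share over all peaks, also without centring, where that share was 5.69%. Peaks of the same gene are not independent draws, so these intervals describe counts and test no list. At a change of at least 0.58 the interval of the progenitor list, 10.4 to 27.7, reached down to the share over all peaks, 10.4%. In the centred data the median change of all their peaks was −0.41, −0.21 and −0.034 in the same order. Uncentred, those medians were −0.58, −0.38 and −0.20, against −0.17 over all peaks.

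Among cortical neuron identity factors, Mef2c, a MADS-box factor of maturing neurons, had a peak inside with levels of 4.33, 4.00 and 0.84 in PP, DP and neurons, and expression of 221.8 and 7435.4. A peak 248 kb upstream of Id2, an inhibitor of bHLH factors, had 5.92, 5.12 and 3.06. Tbr1, a T-box factor of deep-layer neurons, had 1 loss peak of 2 with a change of −1.96 and expression of 419.6 and 39085.4. Lmo4 was the member with peaks in both directions, 2 loss peaks and 1 gain peak of 28. Among progenitor regulators Vim, the intermediate filament of radial glia, had a gain peak of 1.08 with levels of 4.58, 4.32 and 5.48 and was expressed at 86730.2 in PP and 7540.1 in neurons. Uncentred, the difference at that Vim peak was 0.90, below the 2-fold threshold.

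Lists of neuronal function lay lower. For neuronal cytoskeleton and migration 12 of 149 peaks were loss peaks (8.05%, 4.23 to 13.6), for voltage-gated channels 16 of 209 (7.66%, 4.44 to 12.1), for synapse adhesion 14 of 202 (6.93%, 3.84 to 11.4) and for axon guidance 17 of 247 (6.88%, 4.06 to 10.8). Whether these 4 intervals lay above the share over all peaks or included it depended on the threshold and the centring, so no order among the lists is read from them. The genes themselves were mostly higher in neurons, with 26 of 31, 37 of 43, 28 of 38 and 24 of 44 at least 2-fold higher. Cacna1c and Cacna1a, which encode pore subunits of voltage-gated calcium channels, had peaks inside with levels of 5.41 and 5.03 in PP, 5.30 and 4.77 in DP, and 1.64 and 1.51 in neurons. Cntn2, an adhesion molecule of axons, had 3 loss peaks of 13, the largest of them at the lowest neuronal level, and expression of 1146.4 in PP and 226628 in neurons. All 3 peaks of Nrxn2, a presynaptic neurexin, were loss peaks, with changes from −3.35 to −1.15. Ntng2, a netrin-related guidance gene, had a loss peak with levels of 6.94, 6.65 and 4.59 where 5hmC was 4.22, 5.09 and 6.40. Efnb2, an ephrin ligand of Eph receptors, had 3 loss peaks of 18, the named one with 4.11, 4.39 and 0.94.

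Members with lower expression in neurons had loss peaks as well. Ntn4, a secreted netrin, had 1 with levels of 5.03, 4.97 and 2.42, and its expression was 3171.1 in PP and 214.6 in neurons. For cell cycle and replication 10 of 168 peaks were loss peaks (5.95%, 2.89 to 10.7) although 35 of 39 members were at least 2-fold lower in expression and none that much higher. Of these loss peaks 5 belonged to Mki67 and 3 to Gins2, a subunit gene of the replicative helicase complex. Rrm1, a subunit gene of ribonucleotide reductase, had a gain peak with levels of 2.85, 4.46 and 4.17 in PP, DP and neurons and expression of 11107.6 and 1820.3. None of the 10 loss peaks of this list lay inside a gene.

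At genes of the methylation machinery the share of loss peaks could not be told apart from that of the table. Of the 50 peaks at 17 members 1 was a loss peak (2.00%, interval 0.0506 to 10.6, against 4.00% of all peaks), 762 kb downstream of Mbd2, a methyl-CpG binding protein, and none was a gain peak. The peak of Uhrf1, the factor that brings DNMT1 to replicated DNA, with the largest change had levels of 3.92, 4.15 and 4.38, and its expression was 14997.9 in PP and 496.6 in neurons. A peak inside Tet2, an enzyme that oxidises 5mC, had 5.15, 4.67 and 4.25. Lists of other cell types had 2 loss peaks of 75 for endothelial and mural markers (2.67%, 0.325 to 9.30), 0 of 45 for microglia and blood (interval 0 to 7.87), 2 of 27 for meningeal markers, 1 of 15 for interneuron markers and 0 of 12 for the oligodendrocyte lineage. Both endothelial loss peaks were nearest to Cdh5, the cadherin of endothelial junctions, and the meningeal ones to Pdgfra, which marks oligodendrocyte precursors too. One Pdgfra peak had 5mC levels of 4.75, 2.53 and 0.59 and 5hmC levels of 5.09, 4.43 and 4.10, so both marks were lowest in neurons. Of the oligodendrocyte genes, Mbp, for a myelin protein, had a peak that counted as a gain only after centring, with an uncentred difference of 0.93.

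**Figure D4:**
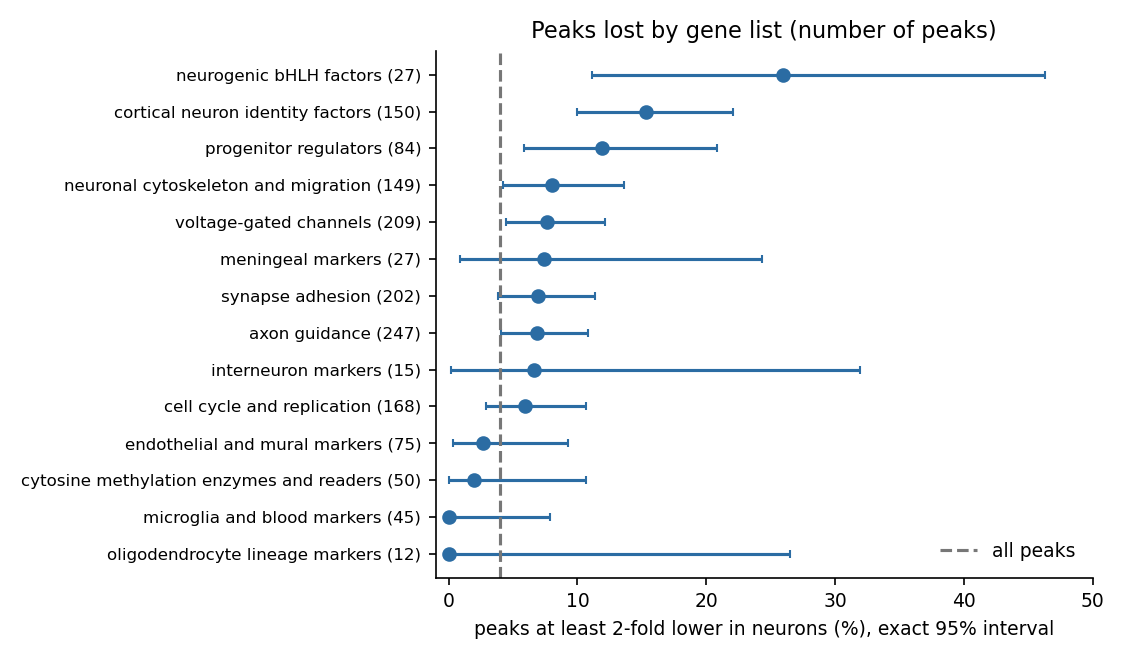
Percentage of 5mC peaks at least 2-fold lower in neurons for the 14 gene lists, with exact 95% intervals that cover the counting of peaks only and the number of peaks after each name. The dashed line is the share over all peaks, 4.00%, and the 3 highest shares are 25.9%, 15.3% and 11.9%.

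Over the whole table, genes near loss peaks were more often higher in neurons than other genes. The 1623 genes with loss peaks only had a median expression change of 0.30 on the log2 scale of value plus 1 (quartiles −0.66 to 1.48), and 33.5% were at least 2-fold higher (31.2 to 35.8). The 298 genes with gain peaks only had a median of −0.25 and 16.8% at least 2-fold higher (12.7 to 21.5), and the 12319 with neither had −0.037 and 19.8%. The quartiles of the loss and the gain genes overlapped widely. Both kinds of peak were found at 54 genes, with a median of 0.069.

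Expression differed more with the number of loss peaks. The median change was −0.041 for genes with none, 0.21 with 1, 0.64 with 2, 0.74 with 3 and 1.38 for the 27 genes with 4 or more, of which 63.0% were at least 2-fold higher (42.4 to 80.6). Genes with more loss peaks also had more peaks of any kind, a median of 2 for genes with no loss peak and 18 for those with 4 or more. Among genes with at least 10 peaks the medians were −0.0039 for none, 0.17 for 1, 0.53 for 2 and 1.16 for 3 or more. Grouped instead by their nearest gene, 6.16% of the peaks near genes over 4-fold higher in neurons were loss peaks (5.63 to 6.73), and 3.04% of those near genes over 4-fold lower (2.65 to 3.47). Gain peaks were 0.536% and 1.01% of the same groups.

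The median was highest for genes with a loss peak inside. The 756 genes with a loss peak inside had a median of 0.57 and 40.5% at least 2-fold higher, against 0.063 and 23.3% for all 8606 genes with any peak inside. For the 255 genes with a loss peak outside and within 10 kb of the start the median was 0.073 and 28.6% were at least 2-fold higher, against −0.039 and 20.05% for all genes with a peak there. From 10 to 50 kb outside, the 492 genes with a loss peak had 0.19 and 30.3%, against −0.047 and 21.8% for all. Beyond 50 kb outside, the 348 with a loss peak had 0.26 and 33.9%, against 0.035 and 27.7%. Of the 1347 genes with a single loss peak 278 were at least 2-fold lower in neurons, 20.6%, against 23.4% of genes with none and 23.0% of all genes.

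**Figure D5:**
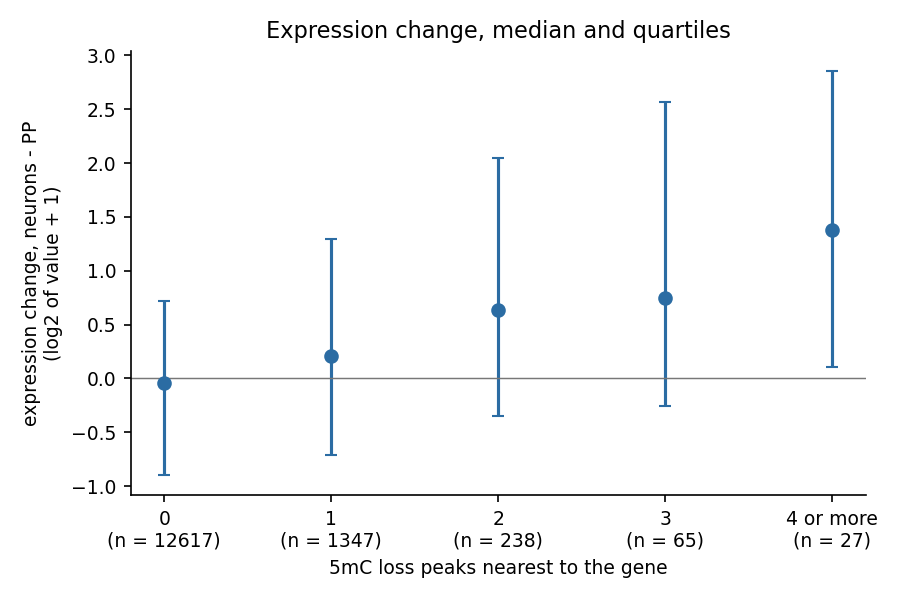
Median expression change from PP to neurons (log2 of value plus 1, bars from the lower to the upper quartile over genes) by the number of 5mC loss peaks nearest to the gene. The median runs from −0.041 with none to 1.38 with 4 or more, and the quartiles of neighbouring groups overlap.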

How the data were processed

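The series holds 5mC and 5hmC pull-downs and inputs of PP, DP, and neurons sorted from E14.5 cortex, 1 pull-down and 1 input per cell type and mark, although 3 biological replicates per cell type are stated. The cell types' DNA was barcoded and pulled down as one mixture. Reads had been aligned by the authors to mm10 (BWA 0.7.8-r455), and peaks came from SICER 1.1. Those shared by all replicates were merged, and repeats were left out. Deposited levels are log2 of normalized reads per peak from DiffBind (TMM, edgeR), averaged over replicates, and not per base. Expression is a deposited score per nearest gene from an earlier study by the authors, on an unnamed scale. Another 10 columns per table hold the authors' folds and p-values and were not used. The tables hold no counts, so depth per sample is unknown from them. Mixing and TMM make levels relative, so a shift of all peaks is not measured.

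The change was the level in N minus that in PP, less its median. Marks were paired by an overlap of at least 1 bp, the longest where several, and 5hmC changes were centred over all 47478 of its rows. Expression changes used log2(value + 1) and symbols with a single entry, 14294 of 14361. No test was possible. Python 3.11.15, pandas 2.3.3, numpy 2.4.6, scipy 1.17.1 and matplotlib 3.10.9 were used, and the steps were tested on simulated data. Named peaks were the 10 largest losses (level of at least 5 in PP) and gains (at least 5 in N), 1 per gene. Named genes were the 8 with most loss peaks, the 4 with most gain peaks, and from each list up to 4 members with the largest change (level of at least 4), of which those without a call are largely left out. Genes with 4 or more loss peaks, other list members, peaks on a promoter, an annotated start or chromosome X, and gains over 4-fold were added after their values were seen. The members and lists were chosen with earlier results of these data known. Coordinates are as deposited, and promoter sequences are from RefSeq (GRCm38.p6). CpG density, motifs and sequences of the other peaks were not analysed here. The 8 repeated rows were kept.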

Additional observations from a re-analysis of the deposited data

How the results depend on the processing

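Of 43 values recomputed under another setting, 25 stayed within the interval of the reported value, or within 1.5 times a reported count, and 18 did not. None of the 76 named changes turned sign without centring, and none could. Leaving it out only adds −0.17 to each, and the smallest positive change among them was 0.30. Loss peaks numbered 5706 and gain peaks 2838 at a log2 change of at least 0.58, 971 and 41 at 1.5, and 826 and 82 among peaks with a level of at least 5 in PP or N. Without centring there were 3137 loss peaks and 145 gain peaks, so the split between both moved with the scaling. Uncentred, the gains at Vim, Mbp and the promoters of Tmsb4x and Rab3il1 were below 2-fold. Peaks of Nhlh2 and Runx1 then passed 2-fold. Centred on the peaks with the highest DP levels, the counts were 2378 and 307. The share of the loss present in DP was 30.7% at 0.58 and 22.7% at 1.5. The X chromosome had 4.01% loss peaks at 0.58, against 10.4% over all peaks. Uncentred, with 5.69% loss peaks in all, the intervals of the cytoskeleton list (5.23 to 15.3) and the guidance list (5.02 to 12.2) included that share, and at 0.58 those of the channels (9.90 to 19.9) and guidance (10.1 to 19.2) included the 10.4%. The 5hmC change at loss peaks was 1.49 at 0.58, 1.58 without centring, and 1.88 at a level of at least 5. The expression change near loss peaks was 0.15 at 0.58, 0.47 at 1.5, 0.43 for genes with an expression of at least 50 and, in a setting added after seeing the data, 0.45 for genes with at least 10 peaks. Adjacent peaks had the same sign in 52.5% of pairs, and in 53.4% at a level of at least 5. The cause of these shifts was not tested. Without the 38 peaks at the lowest neuronal level, also added, 2164 loss peaks were left, with a 5hmC change of 1.74. The planned CpG density and its alternatives were not run. No paired analysis was possible because the labels give no replicate numbers and the tables hold 1 pooled value per cell type, and for the same reason no replicate could be left out. The spread of the changes was widest among peaks of low level.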
